A study of Mus musculus with 10 samples.

Results

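The data were read counts of miR-142a, a microRNA of blood cells, in 10 small RNA libraries of mouse splenic B-cells. A single hairpin precursor gives rise to miR-142a-5p, from its 5′ side, and miR-142a-3p, from its 3′ side. The arms were taken by name as the 2 rows of the deposited count table that belong to the microRNA class and are listed as mmu-miR-142a-5p and mmu-miR-142a-3p. The class has 2015 rows, of which 1302 are mature microRNAs, and the table has 6968 rows in all.

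CD43- splenic B-cells came from wild-type (wt) mice, from mice lacking the 3'RR, the super-enhancer at the 3′ end of the immunoglobulin heavy chain (IgH) locus, and from mice lacking Eµ, the intronic IgH enhancer. The adult mice, of both sexes, shared 1 strain background, and in the Eµ-deficient line the enhancer was deleted together with its flanking matrix attachment regions. Cells were labelled as cultured for 2 days, either in medium alone (non-stimulated, NS) or with 5 µg/ml lipopolysaccharide (LPS), a polyclonal B-cell activator, and the protocol text of the labels gives this LPS dose in mg. The methods of the study describe NS cells of its other sequencing as taken before culture, so the contrast of LPS with NS may also hold an effect of culture. There were 2 libraries in each of the wt NS, wt LPS, 3'RR-deficient NS and 3'RR-deficient LPS groups, and 1 library per condition in Eµ-deficient cells. Each library pooled cells of 2 mice, so replicates are pools rather than animals, and nothing in the labels says which mice gave both an NS and an LPS culture.

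MicroRNAs are short RNAs cut from a hairpin first by Drosha in the nucleus and then by Dicer in the cytoplasm. Of the resulting duplex, one strand is loaded into an Argonaute protein and pairs through its seed, bases 2 to 8, with target messenger RNAs, which lowers their stability and translation, while the other strand is usually lost. Which arm is kept can differ between tissues, and miR-142 is known for functional products from both arms. It is expressed throughout the haematopoietic lineage and is used as a blood-cell marker, and mice without it have disturbed B- and T-cell compartments. Small RNA libraries measure the level of each arm, not its activity.

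The mature sequences, credited to RefSeq on GRCm38.p6, are shown because the arms carry unrelated seeds, which are in capitals.
miR-142a-5p: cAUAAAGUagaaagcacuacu
miR-142a-3p: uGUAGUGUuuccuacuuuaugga
The hairpin that holds both is shown with the 5p arm and the 3p arm in capitals, to give their place on either side of the loop.
Mir142 hairpin: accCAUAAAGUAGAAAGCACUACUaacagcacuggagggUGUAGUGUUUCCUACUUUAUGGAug
The 5p arm covers bases 4 to 24 and the 3p arm bases 40 to 62 of the 64 in the hairpin. Among 1679 mature mouse microRNA names of the RefSeq table, of which 1093 are among the 1302 mature rows counted here, 0 others shared bases 2 to 8 with either arm. The remaining mature rows were not compared. GC content was 33.3% for the 5p and 34.8% for the 3p arm.

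On GRCm38 the hairpin gene Mir142 lies on the plus strand of chromosome 11, from 87756864 to 87756927, in the intron of the long non-coding RNA gene Mir142hg between its exons ending at 87755613 and starting at 87757039. The 5p arm spans 87756867 to 87756887 and the 3p arm 87756903 to 87756925. The protein-coding gene Tspoap1 starts downstream at 87760541. A further 2 rows of the table cover the locus. The antisense microRNA miR-142b, on the minus strand from 87756906 to 87756925, had 0 to 50 counts per library. The hairpin transcript row (ENSMUST00000083486, placed on the plus strand at the Mir142 position) had 16 to 1283 counts. At most 0.0103% and 0.339% as many reads were thus assigned to these rows as to the 5p arm. The strand setting of the counting and the treatment of reads that match several rows are not given in the sources used here, and reads trimmed or extended at their ends cannot be separated within a row.

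Library depth ranged from 3482540 to 18144016 counts, of which 51.4% to 82.1% were in the microRNA class. The second NS libraries of wt and 3'RR-deficient cells were the shallowest, with 3482540 and 3756662 counts against 15073103 and 11915044 in the first. As a check of the cell label without miR-142a itself, the 3 lymphoid markers miR-150-5p, miR-155-5p and miR-181a-5p summed to between 43449 and 118098 CPM (counts scaled to a library size of 1e+06) in each library. The markers of liver and muscle summed to at most 5.62 and 2.92 CPM, the neural marker miR-124-3p had 0 counts in all 10 libraries, and 3 erythroid markers reached 5947 CPM.

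miR-142a-5p was abundant in every library and was the major arm, with 3.47% to 13.2% of the reads of both arms coming from miR-142a-3p. In wt NS cells miR-142a-5p had 1581176 counts in replicate 1, which is 12.8% of the microRNA counts (Wilson 95% confidence interval 12.757 to 12.794), and 22092 counts in replicate 2, which is 0.993% (0.97964 to 1.0057). In NS cells lacking the 3'RR it had 642961 counts (6.67%) and 20914 counts (0.825%). The second NS library of each genotype was thus far below the first, by more than counting error, which is all that these intervals cover. In wt LPS cells the 5p arm had 193585 counts (4.67%) and 464213 counts (5.56%), and in 3'RR-deficient LPS cells 213108 (4.94%) and 525812 (5.00%). In the Eµ-deficient pair of libraries it had 374695 counts (4.61%) without and 378737 counts (4.06%) with LPS. The 5 LPS libraries thus lay within a 1.37-fold range of each other by share, whereas the 5 NS libraries spanned 15.5-fold. By the scaled CPM used for the later comparisons, these ranges were 2.15-fold and 28.7-fold. Among the 1302 mature microRNAs, miR-142a-5p ranked from 2 to 8 in the LPS libraries, and in the NS libraries it ranked 1 in wt replicate 1 and 27 in 3'RR-deficient replicate 2.

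The 3p arm was at a lower level than the 5p arm in every library, and the order of the libraries differed in part. miR-142a-3p had 85395 counts (0.690% of the microRNA counts) in wt NS replicate 1 and 795 counts (0.0357%) in replicate 2. In 3'RR-deficient NS cells it had 25279 (0.262%) and 790 counts (0.0312%). With LPS it had 20076 (0.484%) and 40321 counts (0.483%) in wt and 9280 (0.215%) and 79789 counts (0.759%) in cells lacking the 3'RR. The Eµ-deficient pair had 26738 (0.329%) without and 35023 counts (0.375%) with LPS. As for the 5p arm, the lowest values were those of the second NS libraries, where this arm fell to ranks 97 and 100 of the mature microRNAs. Unlike the 5p arm, it also differed clearly between the 3'RR-deficient LPS replicates.

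**Figure D1:**
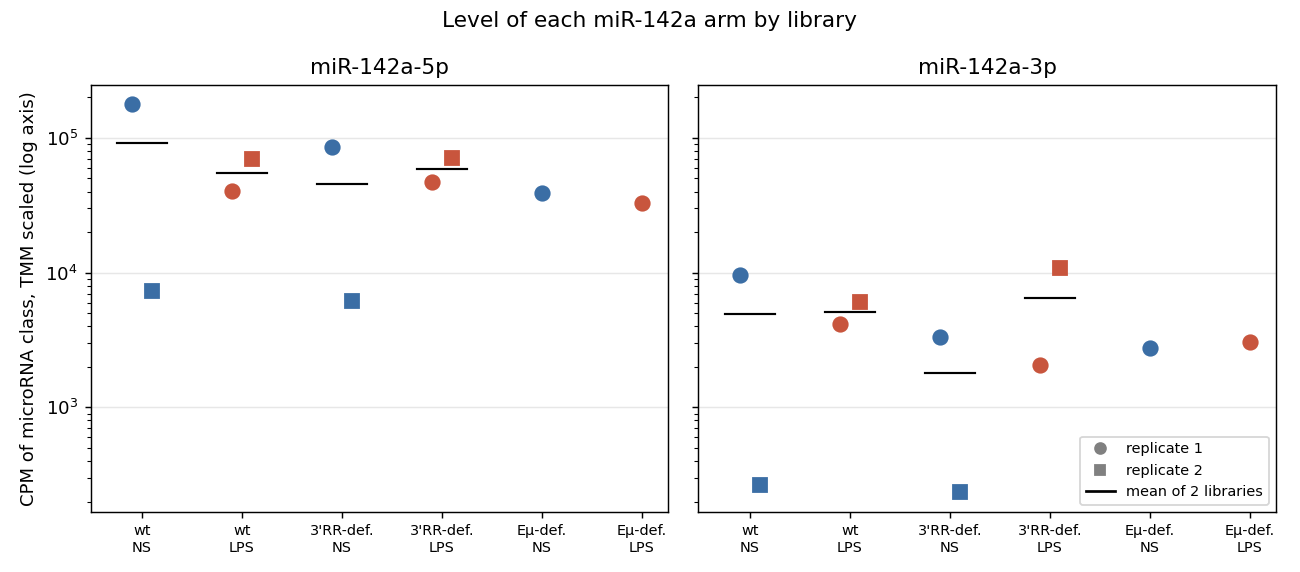
CPM of miR-142a-5p (left) and miR-142a-3p (right) on a log axis in each of the 10 libraries, by genotype and condition; circles are replicate 1, squares replicate 2, blue NS, red LPS, and black lines the mean of 2 libraries. The second NS libraries of wt and 3'RR-deficient cells lie lowest for both arms, at 7357 and 6191 CPM for the 5p and 265 and 234 CPM for the 3p arm.

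For comparisons of level, counts were scaled to CPM of the microRNA class with trimmed mean of M-values (TMM) factors. The mean level of miR-142a-5p was highest in wt NS cells, at 92439 CPM ± 120324 (SD, n = 2). It was followed by 3'RR-deficient LPS cells at 59211 ± 17079 (SD, n = 2), wt LPS cells at 55123 ± 20910 (SD, n = 2) and 3'RR-deficient NS cells at 45557 ± 55671 (SD, n = 2), while the single Eµ-deficient libraries were at 38811 (NS) and 33126 CPM (LPS). No neighbours in this order with replicates differed beyond their spread, and the Eµ-deficient libraries have none. For miR-142a-3p the order was 3'RR-deficient LPS at 6435 ± 6198 (SD, n = 2), wt LPS at 5128 ± 1336 (SD, n = 2), wt NS at 4926 ± 6592 (SD, n = 2), Eµ-deficient LPS at 3063, Eµ-deficient NS at 2770 and 3'RR-deficient NS at 1786 ± 2196 (SD, n = 2). Again no neighbours with replicates differed beyond their spread. On the log2 scale, where 1 high library weighs less, the wt NS mean of the 5p arm was 15.14 ± 3.25 (SD, n = 2), below that of wt LPS cells (15.70 ± 0.56, SD, n = 2), so that the order of these groups depends on the scale of averaging.

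The spread between NS replicates was among the largest of all microRNAs. In wt NS cells replicate 2 was below replicate 1 by a log2 difference in CPM of -4.59 for the 5p arm (24.1-fold) and -5.18 for the 3p arm (36.2-fold). In 3'RR-deficient NS cells the differences were -3.78 (13.7-fold) and -3.83 (14.3-fold). Both arms thus fell together, and in the same replicate of both genotypes. Of the 720 microRNA features tested in wt and 3'RR-deficient cells, 19 had a larger absolute difference than the 5p arm and 5 than the 3p arm in wt NS cells, and 31 and 28 did in 3'RR-deficient NS cells. The median absolute difference was 1.46 and 1.21 in these groups. Among the 156 mature microRNAs with a mean of at least 100 CPM, 4 fell more than the 5p arm between the replicates in wt NS and 4 in 3'RR-deficient NS cells.

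With LPS the replicates were closer. The 5p arm was higher in replicate 2 by a log2 difference in CPM of 0.79 in wt and 0.60 in 3'RR-deficient cells, against medians of the absolute difference of 0.62 and 0.66 over the 720 features and of 0.37 and 0.51 over the 156 abundant mature microRNAs, of which 31 and 63 differed more. The 3p arm differed by 0.54 in wt. In 3'RR-deficient LPS cells it differed by 2.40, a 5.27-fold difference that 48 of the 720 features (6.67%) and 1 of the 156 abundant mature microRNAs exceeded. The wide spread of NS replicates was thus shared by both arms, and that of the 3'RR-deficient LPS replicates was not. With LPS, replicate 2 was the deeper library, with 11247124 against 6054137 counts in wt and 13859730 against 6056266 in 3'RR-deficient cells. In each replicated group, NS or LPS, both arms thus had the higher CPM in the deeper library. The part of depth was not tested.

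**Figure D2:**
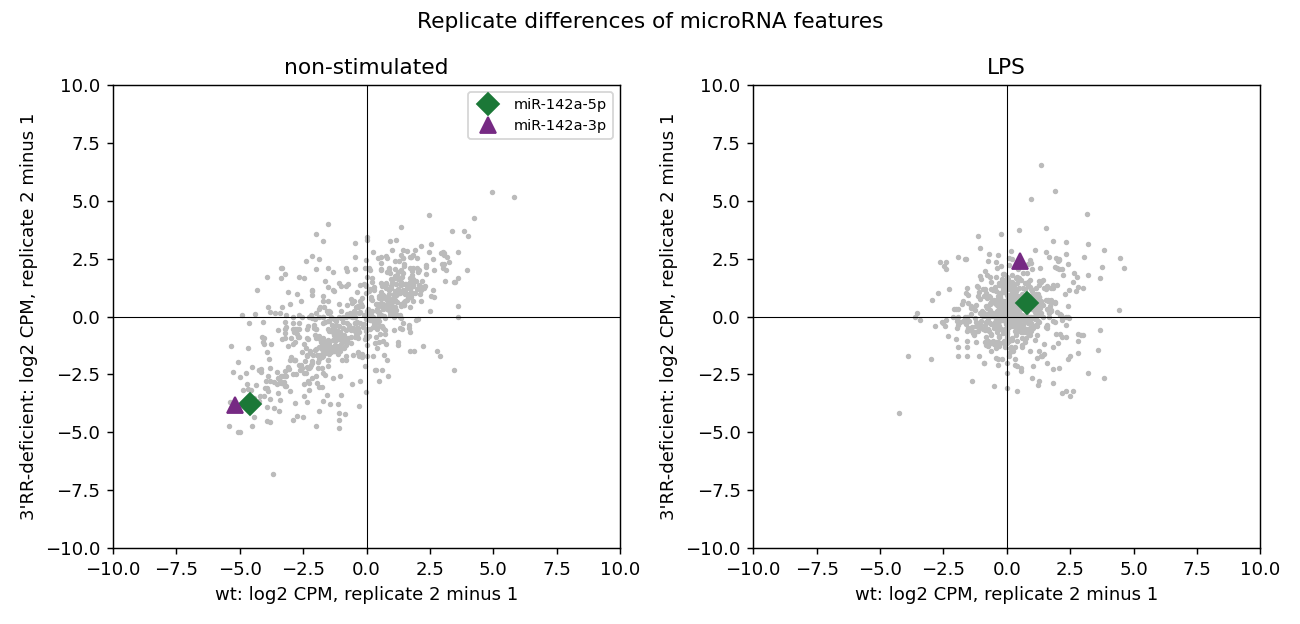
Log2 CPM of replicate 2 minus replicate 1 in wt (x axis) and 3'RR-deficient cells (y axis) for 720 microRNA features, non-stimulated (left) and LPS (right). Both miR-142a arms sit in the lower left corner of the left panel (-4.59 and -3.78 for 5p, -5.18 and -3.83 for 3p), and near the centre of the right panel apart from miR-142a-3p in 3'RR-deficient cells (2.40).

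Other measures differed between these NS replicates. The microRNA class held 82.1% (replicate 1) and 63.9% (replicate 2) of the counts in wt, and 81.0% and 67.5% with the 3'RR deleted. Hairpin transcript rows held 0.0967% and 0.398% of the microRNA counts in wt, and 0.120% and 0.365% with the 3'RR deleted. The 3 lymphoid markers without miR-142a summed to 68574 and 107589 CPM in wt, and to 84387 and 104006 CPM with the 3'RR deleted. Of a list of 10 microRNAs known from lymphocytes, 6 were lower in replicate 2 in both genotypes, as miR-142a was, with log2 differences down to -3.97 for miR-21a-5p in wt, 3 were higher in both, and miR-155-5p differed by 0.24 in wt and -0.17 with the 3'RR deleted. Over the 720 features, which are not independent, the NS replicate differences of both genotypes correlated with r = 0.662, against 0.113 for the LPS replicates. The summed level of the 3 erythroid markers was 4630 CPM in the first and 238 in the second wt NS library and 2456 and 468 in the 3'RR-deficient ones, and none of the 3 was at 0 in all libraries. The 2 myeloid markers summed to 1990 and 479 CPM in wt NS and to 1496 and 1042 CPM in 3'RR-deficient NS cells, and over all libraries they ranged from 479 to 5031 CPM in NS and from 82.4 to 512 in LPS cells. The 2 endothelial markers went from 141 to 25.3 CPM in wt NS and from 61.2 to 41.1 CPM in 3'RR-deficient NS cells. The 2 stromal markers went from 912 to 167 CPM in wt NS but from 153 to 247 CPM in 3'RR-deficient NS cells. The part of these measures and of depth in the level of miR-142a was not tested. In such bulk samples fewer cells that express a microRNA and less of it per cell cannot be told apart.

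The microRNAs whose levels ran most closely with miR-142a were found by Pearson's r of log2 CPM over the 10 libraries, among the other 155 mature microRNAs with a mean of at least 100 CPM. For the 5p arm these were miR-16-5p (r = 0.966), miR-101a-3p (0.958), miR-194-5p (0.954), miR-362-5p (0.942) and miR-1839-5p (0.941). For the 3p arm they were miR-32-5p (0.976), miR-101a-3p (0.973), miR-101b-3p (0.969), miR-362-5p (0.967) and miR-30e-5p (0.960). Each of these 8 microRNAs was also lower in the second than in the first NS library of both genotypes, by log2 differences from -4.76 for miR-32-5p in wt to -1.42 for miR-362-5p in 3'RR-deficient cells. The points share their libraries and scaling factors, and these values are a description.

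Between the arms themselves, log2 CPM correlated over the 10 libraries with Pearson's r = 0.939 (permutation test, two-sided, p = 0.0007) and Spearman's rho = 0.806 (permutation test, p = 0.00742). Adjusted by Benjamini-Hochberg over these 2 values, the p-values were 0.0014 and 0.00742. The permutation treats the 10 libraries as exchangeable, although they fall into groups and both arms share the scaling factor of a library. These p-values are thus no test of a relation within groups. Without the 2 libraries farthest from the median of the 5p arm, which were the second NS libraries of wt and 3'RR-deficient cells, r was 0.682 over the remaining 8. The strength of the relation thus rests in part on those libraries.

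The first comparison asked whether the level of either arm changed with LPS. In edgeR's quasi-likelihood test neither arm passed an adjusted p of 0.05 in either genotype. In wt cells the log2 fold change of LPS against NS was -0.63 (SE 1.32, adjusted p 0.817) for miR-142a-5p and 0.18 (SE 1.42, adjusted p 0.954) for miR-142a-3p. In this comparison 0.694% of the 720 features passed. In cells lacking the 3'RR it was 0.28 (SE 1.31, adjusted p 0.923) for the 5p and 1.67 (SE 1.45, adjusted p 0.567) for the 3p arm, with 0.972% of features past the threshold. Over both genotypes the values were -0.18 (SE 0.89, adjusted p 0.889) and 0.92 (SE 1.01, adjusted p 0.538), although 21.8% of features passed. The 95% intervals in wt, from -3.22 to 1.95 for the 5p and from -2.60 to 2.96 for the 3p arm (log2), hold large changes in either direction. A fit with replicate effects separate in NS and LPS cells takes the spread between NS replicates out of the error, while LPS and NS are still compared across it. Its p-values are therefore no test of LPS against NS, although they passed the threshold for the 3p arm in each genotype and for the 5p arm in 3'RR-deficient cells and over both.

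The direction depended on which NS library served as the baseline. The wt LPS libraries were below NS replicate 1 for the 5p arm, by log2 ratios of -2.14 and -1.34, and above NS replicate 2 by 2.45 and 3.25. In 3'RR-deficient cells the ratios were -0.85 and -0.25 against NS replicate 1 and 2.93 and 3.53 against replicate 2. For the 3p arm the 4 ratios to the first NS library of the same genotype lay between -1.20 and 1.70, and the 4 to the second between 3.13 and 5.53. In Eµ-deficient cells, with 1 library per condition and so no test, the log2 ratio of the LPS to the NS library was -0.23 for the 5p and 0.15 for the 3p arm.

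A repeat of the test without one pair of NS libraries, chosen after the data were seen, gave calls in opposite directions for the 5p arm. With wt and 3'RR-deficient cells together, miR-142a-5p changed by -1.22 (SE 0.35, adjusted p 0.0194, edgeR) when the second NS libraries were left out. It changed by 2.93 (SE 0.33, adjusted p 5.45e-05, edgeR) when the first were left out. The 3p arm changed by -0.17 (SE 0.51, adjusted p 0.832) in the former and by 4.36 (SE 0.61, adjusted p 0.00025) in the latter. Each NS group then held 1 library, whose spread was assumed to be that of the other groups, and replicate numbers cannot be told apart from depth in these NS libraries.

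**Figure D3:**
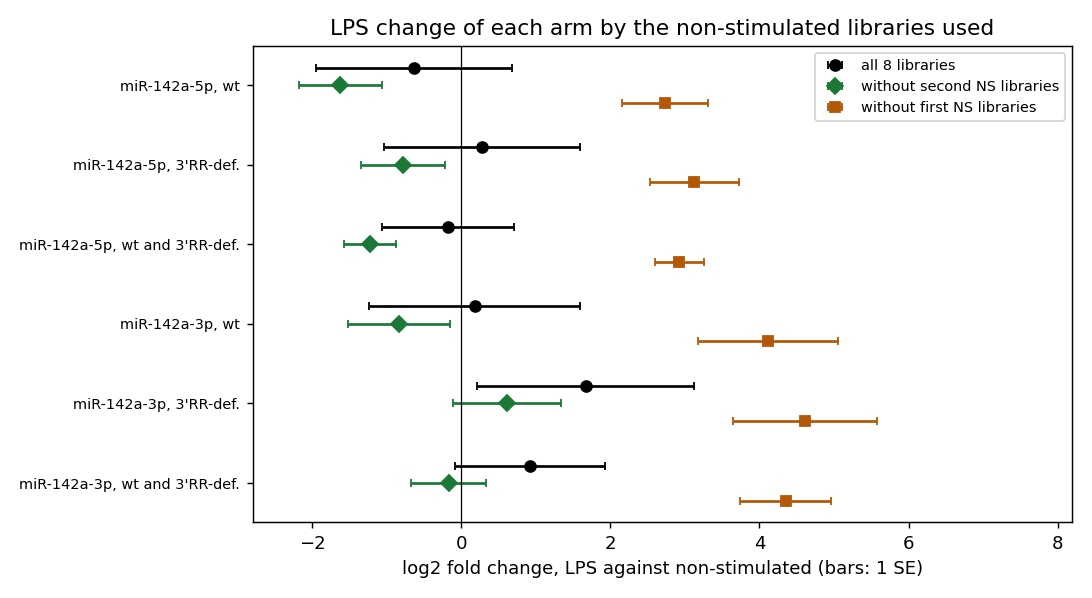
Log2 fold change of LPS against non-stimulated cells for each arm in wt, in 3'RR-deficient and in both genotypes together (bars, 1 SE), with all 8 libraries (black), without the second (green) or without the first NS libraries (orange). For the 5p arm over both genotypes the values are -0.18, -1.22 and 2.93.

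Other microRNAs known from lymphocytes give the setting in the same test. Of the list of 10, none passed in either genotype alone. With both genotypes together 4 of the 10 passed, against 21.8% of all 720 features. Of these 2 rose, miR-155-5p (log2 fold change 2.76), an activation-induced microRNA, and miR-17-5p (3.14), a member of a cluster linked to proliferation. In that test 2 fell, miR-150-5p (-2.45), a microRNA of resting lymphocytes, and miR-181a-5p (-2.31), a modulator of antigen receptor signalling. The median of the list was 0.01, against 0.07 over all 720 features. The SE of these 4 calls lay between 0.42 and 0.67, whereas that of the miR-142a arms was 0.89 and 1.01.

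The second comparison asked whether loss of an IgH enhancer changed either arm. For 3'RR-deficient against wt NS cells miR-142a changed by a log2 fold of -0.80 (SE 1.32, adjusted p 1) for miR-142a-5p and -1.24 (SE 1.44, adjusted p 1) for miR-142a-3p. With LPS it was 0.11 (SE 1.31, adjusted p 1) and 0.25 (SE 1.42, adjusted p 1). In each of these comparisons 0% of the 720 features passed in edgeR, with 9 (NS) and 15 (LPS) at an unadjusted p under 0.05, and DESeq2 called 1 and 2. Over both conditions the values were -0.34 (SE 0.89, adjusted p 0.997) and -0.50 (SE 1.00, adjusted p 0.997), with 0.139% of features past the threshold.

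Set against the same-numbered wt library, the NS libraries lacking the 3'RR had log2 ratios of -1.06 and -0.25 for the 5p arm and -1.52 and -0.18 for the 3p arm. Both arms were thus lower in 3'RR-deficient cells in each same-numbered pair, by amounts that differed between the pairs. The numbers are not shown to pair the libraries, and across numbers the direction went either way. For the 5p arm, 3'RR-deficient NS replicate 1 (84922 CPM) was above wt NS replicate 2 (7357 CPM). Replicate 2 of the 3'RR-deficient NS cells (6191 CPM) was below wt NS replicate 1 (177521 CPM). The NS difference of the 5p arm was 2.36 without wt NS replicate 1 and -3.56 without 3'RR-deficient NS replicate 1, so that it rested on these libraries. With LPS the ratios were 0.22 and 0.03 for the 5p arm and -1.03 and 0.83 for the 3p arm, which had opposite signs in the replicates. The LPS change in 3'RR-deficient cells minus that in wt was 0.91 (SE 1.86, adjusted p 1) for the 5p and 1.49 (SE 2.01, adjusted p 1) for the 3p arm in edgeR. Without wt NS replicate 1 these values were -2.23 and -2.22, and without 3'RR-deficient NS replicate 1 they were 3.69 and 4.31, so that the direction rested on single libraries. For this difference 0% of features passed, with 5 at an unadjusted p under 0.05 and 0 calls by DESeq2.

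Eµ-deficient cells were tested against wt across both conditions, in a fit of all 10 libraries in which 988 features were tested and 1.62% passed (16 features, and 1 without the Eµ-deficient LPS library). Relative to wt, the log2 fold change came to -1.02 (SE 1.03, adjusted p 0.761) for miR-142a-5p and -0.80 (SE 1.13, adjusted p 0.848) for miR-142a-3p. For the 5p arm a fit with replicate effects separate in NS and LPS cells did pass the threshold. That fit takes the single Eµ-deficient libraries to match wt replicate 1, which the labels do not show. The Eµ-deficient NS library lay between the wt NS libraries for both arms, with log2 ratios to them of -2.19 and 2.40 for the 5p and -1.79 and 3.39 for the 3p arm. Without wt NS replicate 1 the fold changes were 0.58 and 1.17. With LPS the Eµ-deficient library was below both wt libraries, by -0.28 and -1.08 for the 5p and by -0.45 and -0.99 for the 3p arm. This last difference rests on 1 library and has no replicate check. The Eµ-deficient libraries also had the lowest shares of counts in the microRNA class, 60.2% (NS) and 51.4% (LPS). Hairpin transcript rows held 0.300% (NS) and 1.69% (LPS) of their microRNA counts, the latter the highest of all libraries. The part of these measures in the comparison with wt was not tested.

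In the ratio of the arms the scaling of a library cancels, because both arms are counted in the same library. Other differences between libraries need not cancel. The 5p arm had 9.64 and 11.5 reads for each 3p read in wt LPS cells, and 18.5 and 27.8 in wt NS cells. Expressed as 3p reads per 100 5p reads, the ratio was 5.40 and 3.60 in wt NS replicates 1 and 2 and 10.4 and 8.69 in wt LPS replicates 1 and 2. In cells lacking the 3'RR it was 3.93 and 3.78 for NS and 4.35 and 15.2 for LPS replicates. In Eµ-deficient cells it was 7.14 without and 9.25 with LPS. Within each genotype, every LPS library thus had relatively more 3p reads than every NS library, but the 3'RR-deficient LPS replicate 1 was below wt NS replicate 1.

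As a share of the reads of both arms, the 3p arm made up between 3.47% (Wilson 95% confidence interval 3.2441 to 3.7187), in wt NS replicate 2, and 13.2% (13.09 to 13.261), in 3'RR-deficient LPS replicate 2. These intervals are narrow against the differences between libraries. The mean ratio per group was 4.50 ± 1.27 (SD, n = 2) 3p reads per 100 5p reads in wt NS, 9.53 ± 1.19 (SD, n = 2) in wt LPS, 3.85 ± 0.11 (SD, n = 2) in 3'RR-deficient NS and 9.76 ± 7.65 (SD, n = 2) in 3'RR-deficient LPS cells. The wt groups were thus separated by more than their spread, and the 3'RR-deficient groups were not.

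**Figure D4:**
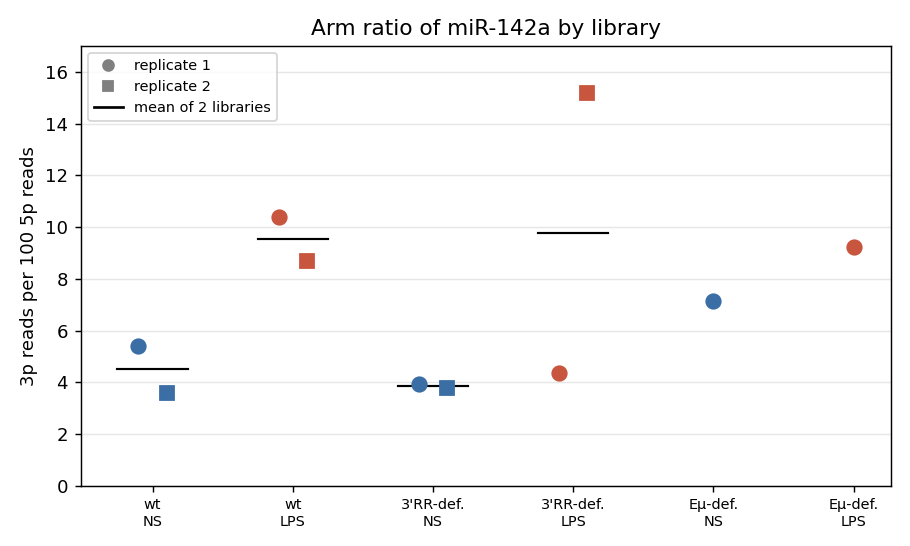
Reads of miR-142a-3p per 100 reads of miR-142a-5p in each library, by genotype and condition; circles are replicate 1, squares replicate 2, blue NS, red LPS, and black lines the mean of 2 libraries. NS libraries lie between 3.60 and 7.14 and LPS libraries between 4.35 and 15.2.

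The difference of the log2 ratio between LPS and NS cells was 1.09 over wt and 3'RR-deficient cells, a 2.13-fold higher ratio of 3p to 5p. An exact permutation test within genotype (two-sided) gave p = 0.0556, the smallest that its 36 assignments allow, so that this design cannot reach 0.05. With the Eµ-deficient pair included, an alternative chosen after the data were seen, the difference was 0.85 and the exact permutation test gave p = 0.0278, the smallest possible among 72 assignments. In limma's test across 388 hairpins with both arms in the table, the difference of miR-142a had an SE of 0.44, an unadjusted p of 0.0348 and an adjusted p of 0.255, and did not pass. In this test 0% of hairpins passed, and 69 had an unadjusted p under 0.05.

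The ratio gave the same direction against either set of NS libraries. Each of the 8 pairings of an LPS with an NS library of the same genotype in wt and 3'RR-deficient cells had a higher ratio with LPS, by log2 differences from 0.15 to 2.01, and in Eµ-deficient cells the difference was 0.37. The NS replicates, which differed 24.1-fold and 13.7-fold in the level of the 5p arm, differed by -0.58 (wt) and -0.06 (3'RR-deficient) in the log2 ratio. Arm ratios of other hairpins were less alike between these NS replicates. Over 25 abundant hairpins the median absolute difference was 1.61 (wt) and 1.23 (3'RR-deficient), and 20 and 23 differed more than miR-142a. With LPS the medians were 0.26 and 0.67. In the LPS groups the replicate difference was -0.26 in wt and 1.80 in 3'RR-deficient cells, the latter larger than in any other of 25 abundant hairpins. Without 3'RR-deficient LPS replicate 2, the change of the ratio with LPS was 0.73. It was 0.93 without the second and 1.25 without the first NS libraries.

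The arm ratio did not pass a test between genotypes. It differed between 3'RR-deficient and wt cells by -0.21 (log2, SE 0.44, adjusted p 0.979, limma), with an exact permutation p of 0.833 within condition, where the smallest possible was 0.0556. Between same-numbered libraries the difference was -0.46 and 0.07 without and -1.25 and 0.80 with LPS. For Eµ-deficient against wt cells it was 0.33 (SE 0.51, adjusted p 0.843, limma), with an exact permutation p of 0.444 among 9 assignments. Without the Eµ-deficient NS library it was -0.030, and without the Eµ-deficient LPS library 0.69. In both tests 0% of the 388 hairpins passed, with 16 and 25 at an unadjusted p under 0.05.

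The mean arm ratios of other hairpins also differed between the conditions, although 0% of the 388 hairpins passed in limma's test. Among the 25 hairpins whose arms each averaged 100 CPM or more, the log2 ratio of 3p to 5p was higher in the mean of the 5 LPS than of the 5 NS libraries in 14 and lower in 11. By the size of this shift miR-142a (0.95) ranked 11, near the median absolute shift of 0.90. The largest shifts were those of miR-155 (2.61), miR-17 (-2.26) and miR-340 (-1.84). Every LPS library lay above every NS library of its genotype in 4 of the 25 hairpins, which were miR-155, miR-191, miR-150 and miR-142a (named after their values were seen), and below in 4. The separation in the direction of miR-142a was thus seen in 16.0% of these hairpins, and in either direction in 32.0%. Over all 10 libraries, 17 of the 25 had a more variable log2 ratio than miR-142a, and 7 favoured the 5p arm more strongly.

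**Figure D5:**
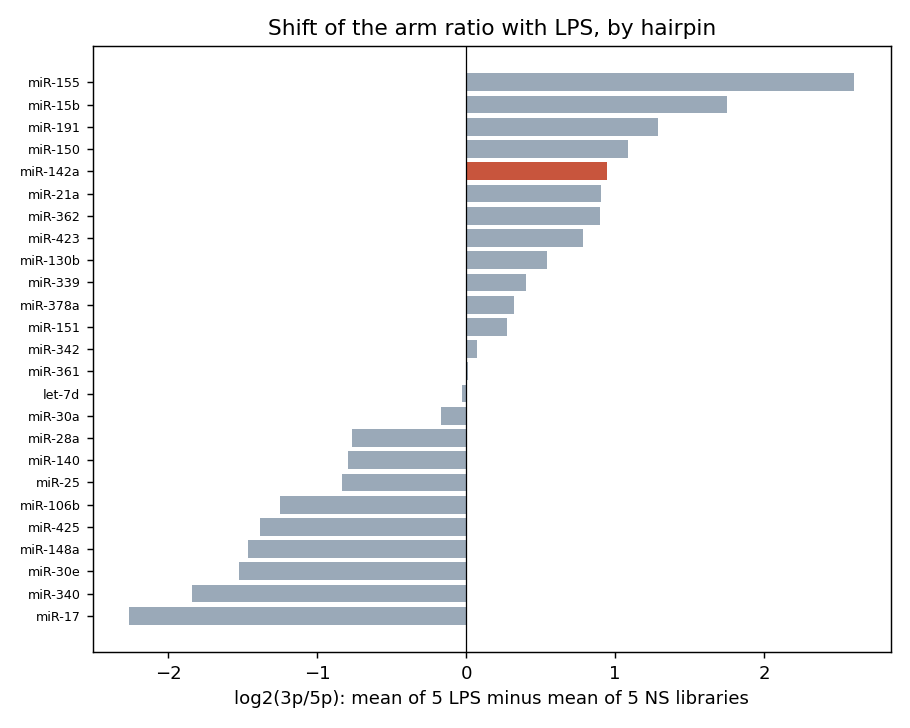
Difference of the mean log2 ratio of 3p to 5p reads between 5 LPS and 5 NS libraries for the 25 hairpins with at least 100 CPM in each arm, with miR-142a in red at 0.95. Bars start at 0; 14 hairpins lie above 0 and 11 below.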

How the data were processed

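Small RNA libraries were made with the NextFlex small RNAseq kit V3, with 17 cycles of amplification and 75 nt reads. Values in the deposited table are raw read counts of each small RNA in each library, not normalized by the authors. The submitters' processing notes name cutadapt 1.2.1, Bowtie2 and mm10; the counting program is not given in the sources used here. Counts range from 3482540 to 18144016 per library; intervals cover counting error alone, and PCR copies of a molecule are not independent.

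Counts of the microRNA class were tested with edgeR 4.0.16 in R 4.3.3 (TMM, filterByExpr, quasi-likelihood F-test, two-sided, Benjamini-Hochberg over all features tested, threshold 0.05). The wt and 3'RR-deficient libraries were fitted together, and all 10 libraries for Eµ. The SE is the log2 fold change divided by the root of F, and 95% intervals are normal. CPM used all 10 libraries; log2 CPM had a prior count of 2. Arm ratios, with 0.5 added to each count, were tested with limma 3.58.1 across hairpins with reads in both arms, and by exact permutation over libraries. p-values measure the spread between pools. Alternatives included DESeq2 1.42.0. The calculations were tested on simulated data. Named microRNAs were both arms, rows at the locus, the 5 closest to each arm by r, the 3 hairpins with the largest arm shift and a list of 10. Members and lists were chosen with earlier results of these data known. The study names no test for small RNA counts.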

Additional observations from a re-analysis of the deposited data

How the results depend on the processing

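Of 350 repeats of the 19 comparisons of level and arm ratio, 299 kept direction and side of the threshold, 41 changed direction and 13 gained a call, 3 of them with the direction changed; the cause was not tested. Leaving out both first NS libraries (added after the data were seen) changed miR-142a-5p with LPS by 2.73 (wt), 3.13 (3'RR-deficient) and 2.93 (both), and miR-142a-3p by 4.12, 4.61 and 4.36, all past the threshold; between 3'RR-deficient and wt over both conditions the arms changed by 0.0063 and 0.14. Leaving out both second ones gave -0.83 for miR-142a-3p in wt, -0.78 for miR-142a-5p in 3'RR-deficient cells, and -1.22 (past the threshold) and -0.17 over both.

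The replicate number as a block (replicate block) gave 0.55 in wt and 0.95 in both genotypes for the LPS change of miR-142a-5p, without a call, with 27, 11 and 156 features called in wt, 3'RR-deficient and both against 5, 7 and 157. Same-numbered libraries of NS and LPS groups did not deviate together (r from -0.286 to -0.059). These values give no sign of a pairing across conditions but cannot exclude it, as the order of depth was reversed between NS and LPS. Within a condition those of wt and 3'RR-deficient cells deviated together for NS (r = 0.662) and hardly for LPS (0.113), as a hint from the data and not the design. In 3'RR-deficient cells (r = -0.218) a crossed block gave 83 calls against 7. With the replicate block within culture condition, miR-142a-5p changed with LPS by 0.59 (wt), 1.28 (3'RR-deficient) and 0.93 (both, the latter 2 past the threshold) and by -1.17 in Eµ-deficient against wt cells (past the threshold). miR-142a-3p changed by 1.74, 2.40 and 2.07 with LPS (all past the threshold) and by -0.087 between 3'RR-deficient and wt LPS cells. In this fit LPS and NS lie in different blocks and are tested against the spread within blocks alone, so these are no tests of LPS. The numbers of the single Eµ-deficient libraries are not shown to pair them with wt replicate 1. It changed no other call of the arms. With all features, miR-142a-3p changed by -0.72 in wt and -0.12 in both, and miR-142a-5p by -0.71 in 3'RR-deficient cells. With the GC trend removed (607 of 720 features, 84.3%), the values were -0.20 for miR-142a-3p in wt and -0.44 for miR-142a-5p in 3'RR-deficient cells. With total counts miR-142a-5p differed by -0.041 between 3'RR-deficient and wt LPS cells. Scaling moved the median of all features by -0.166 to 0.375.

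Leaving out 1 library moved the LPS change of miR-142a-5p from -1.64 to 2.55 (wt), -0.74 to 2.98 (3'RR-deficient) and -0.72 to 1.11 (both), and that of miR-142a-3p from -0.85 to 3.93, 0.33 to 4.42 and 0.20 to 2.50; in wt the lowest is without wt NS replicate 2 and the highest without wt NS replicate 1. Between 3'RR-deficient and wt cells the ranges were -3.56 to 2.36 (NS), -0.14 to 0.49 (LPS) and -1.02 to 0.92 (both) for the 5p and -4.05 to 2.48, -1.11 to 1.01 and -1.25 to 1.05 for the 3p arm. The NS extremes are without the first replicates of either genotype. For the difference of responses they were -2.23 to 3.69 and -2.22 to 4.31, and for Eµ-deficient against wt cells -1.38 to 0.58 and -1.24 to 1.17. The arm ratio ranged from 0.73 to 1.45 with LPS, from -0.57 to 0.15 between 3'RR-deficient and wt and from -0.030 to 0.69 between Eµ-deficient and wt cells. None of these gave a call.

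Calls over all features went with LPS from 5 to between 0 and 195 in wt, from 7 to between 0 and 183 in 3'RR-deficient cells and from 157 to between 71 and 336 in both. They went from 0 to at most 1 (NS) and 2 (LPS), from 1 to between 0 and 7 over both conditions, and for Eµ-deficient cells from 16 to between 1 and 155. The most LPS calls came without the first NS libraries or with the block within condition. No ratio could be formed for hairpins without reads in an arm.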
